A study of Mus musculus with 12 samples.

Results

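The genes described here encode the proteins of the cytosolic ribosome. They were chosen by symbol: every mouse gene named Rpl or Rps followed by a number and at most a short a, x, y or l suffix, together with Rplp0, Rplp1, Rplp2 and Rpsa, with pseudogenes left out. The tables hold 22667 gene IDs, and 81 of them met this rule and are annotated as protein-coding, 49 for the large subunit and 32 for the small subunit. A further 5 IDs had matching symbols but are annotated as processed pseudogenes and were kept apart. The IDs of Rpl24 and Rpl41 were not matched in the tables and are not analysed here.

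The study measured messenger RNA by sequencing in the cortex and the hippocampus of E18.5 mouse embryos, and compared wild-type controls with nSR100/Srrm4 KO (knockout) embryos. nSR100 is the protein of Srrm4, a splicing regulator of neurons that promotes the inclusion of short exons. The KO goes back to EUCOMM stem cells of 2 clones with the conditional nSR100lox allele, which were aggregated with morulae of the outbred ICR stock. Carriers were kept on a C57Bl/6N background and crossed to a mouse line with Cre recombinase under the CMV promoter, which is active in most tissues, and this removed exons 7 and 8. The 4 groups, cortex control, cortex KO, hippocampus control and hippocampus KO, have 2 libraries each. The library called replicate 1 joins runs 1 and 2 of its sample in every group. The labels do not say whether the 2 libraries of a group came from separate embryos, so the p-values below measure the spread of these libraries only, and part of it may be technical.

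A cytosolic ribosome holds 1 copy of nearly every ribosomal protein, and cells make these proteins in matched amounts. In mammals the matching takes place to a large degree after transcription: the messenger RNAs of this family start with a C followed by a run of C and T letters, the 5′ terminal oligopyrimidine motif, through which the mTOR pathway regulates their translation. Growing and dividing cells need many new ribosomes, and these messenger RNAs are among the most abundant in embryonic tissue, the brain included. A few genes have relatives that are used in particular tissues or states, among them Rpl22l1 beside Rpl22, Rps27l beside Rps27, Rpl3l in muscle and Rpl10l and Rpl39l in the testis. Rpl7l1 resembles Rpl7 and in human cells takes part in the assembly of the large subunit.

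The stretch around the start of transcription is what these genes share in sequence. A RefSeq promoter of the GRCm38.p6 assembly was matched for 61 of the 81 genes. A run of at least 8 C or T letters that begins with C, read on the gene's strand and placed between 50 bases before and 50 bases after the annotated start, was found in 51 of these 61 genes (83.6%) and in 8645 of all 27025 genes with such a promoter (32%). A C at the annotated start itself followed by at least 4 C or T letters was found in 13 of 61 (21.3%) and in 3.01% of all genes. The letters CCGGAAG, searched on both strands over the 300 bases of the promoter, stood in 25 of 61 (41%) and in 9.93% of all genes. TATAAA between 45 and 16 bases before the start stood in 1 of 61 (1.64%) and in 2.57% of all. These are matches of letters and say nothing of translation in these tissues. The 8 windows of 30 bases that follow belong to the genes on which the results below turn. The longest such run of each is in capitals, or the first where runs tie.
Rps27l: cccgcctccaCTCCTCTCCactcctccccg
Rps27: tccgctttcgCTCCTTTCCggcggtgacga
Rpl22l1: gcaagcccgttCTCTTCCCacggctgcagc
Rpl22: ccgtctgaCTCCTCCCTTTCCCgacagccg
Rpl7l1: gtcgaggcgggCCTCTCTaccccgcccggt
Rpl28: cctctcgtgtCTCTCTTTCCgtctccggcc
Rpl15: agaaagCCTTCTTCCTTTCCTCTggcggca
Rpl7a: caattCCCTCTTCTTTCTTTCTCCagcagc

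In GRCm38.p6 the window of Rps27l lies at chr9:66946054-66946083 on the plus strand and that of Rps27 at chr3:90213631-90213660 on the minus strand. The window of Rpl22l1 is chr3:28805500-28805529 (plus) and that of Rpl22 is chr4:152325679-152325708 (plus). The window of Rpl7l1 is chr17:46782670-46782699 (minus), that of Rpl28 chr7:4792953-4792982 (plus), that of Rpl15 chr14:18270967-18270996 (minus) and that of Rpl7a chr2:26910790-26910819 (plus). Counted with the annotated start as position 1, the runs of Rpl28, Rpl15, Rpl7a and Rps27 began at positions -2, -4, -12 and -2. In Rpl22l1 the run began at position 4. The longest run of Rpl7l1 had 7 letters and began at position -32, so this gene was among the 10 without a run of 8. The capitalised runs of Rps27l and Rpl22 began at positions -22 and -39. In Rps27l a run of equal length follows after a single A.

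The 8 libraries held 58210499 to 140052443 counts, with replicate 1 the deeper of each pair. In RPKM, Srrm4 was at 25.2 and 24.2 in control cortex, 8.12 and 6.97 in KO cortex, 26.0 and 27.9 in control hippocampus and 5.68 and 6.16 in KO hippocampus. The KO libraries lay below the controls in both tissues, with a log2 fold change of -1.71 (SE 0.0987, adjusted p = 0.000877) in cortex and -2.21 (SE 0.101, adjusted p = 0.000254) in hippocampus by edgeR's quasi-likelihood test. The defining genes of the tissues followed the labels for Prox1, Zbtb20 and Lef1, which were high in hippocampus, and for Tbr1, Cux2 and Bcl11b, which were high in cortex; Fezf2, listed as a cortex marker, was higher in hippocampus, and Wfs1, listed for hippocampus, was not higher there. Replicate 1 of hippocampus KO stood apart. Nr3c2, the mineralocorticoid receptor gene and one of the hippocampus markers, had 6.91 RPKM there against 11.7, 10.2 and 10.9 in the other hippocampus libraries, and genes of the mitochondrial genome took 4.40% of the counts against 3.14% to 3.44% in the other 7 libraries. The results on ribosomal protein genes that rest on this library are given below with and without it.

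Ribosomal protein messenger RNAs were abundant, and they spanned a wide range of levels. The median over the 80 genes with an RPKM value (reads per kilobase of the authors' gene length and counted reads of the library) was 162, against 3.18 over all genes; it was 147 for the large and 304.2 for the small subunit. Of the 80, 24 had a mean above 500 RPKM, 49 were above 100, 26 lay between 10 and 100, and 3 were below 1. The 81 genes together took 1.17% and 1.21% of all counts in control cortex, 1.23% and 1.23% in KO cortex, 1.20% and 1.20% in control hippocampus, and 1.51% and 1.24% in KO hippocampus. The plot of RPKM by gene shows how close the 8 libraries lay for a gene compared with the distance between genes.

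**Figure D1:**
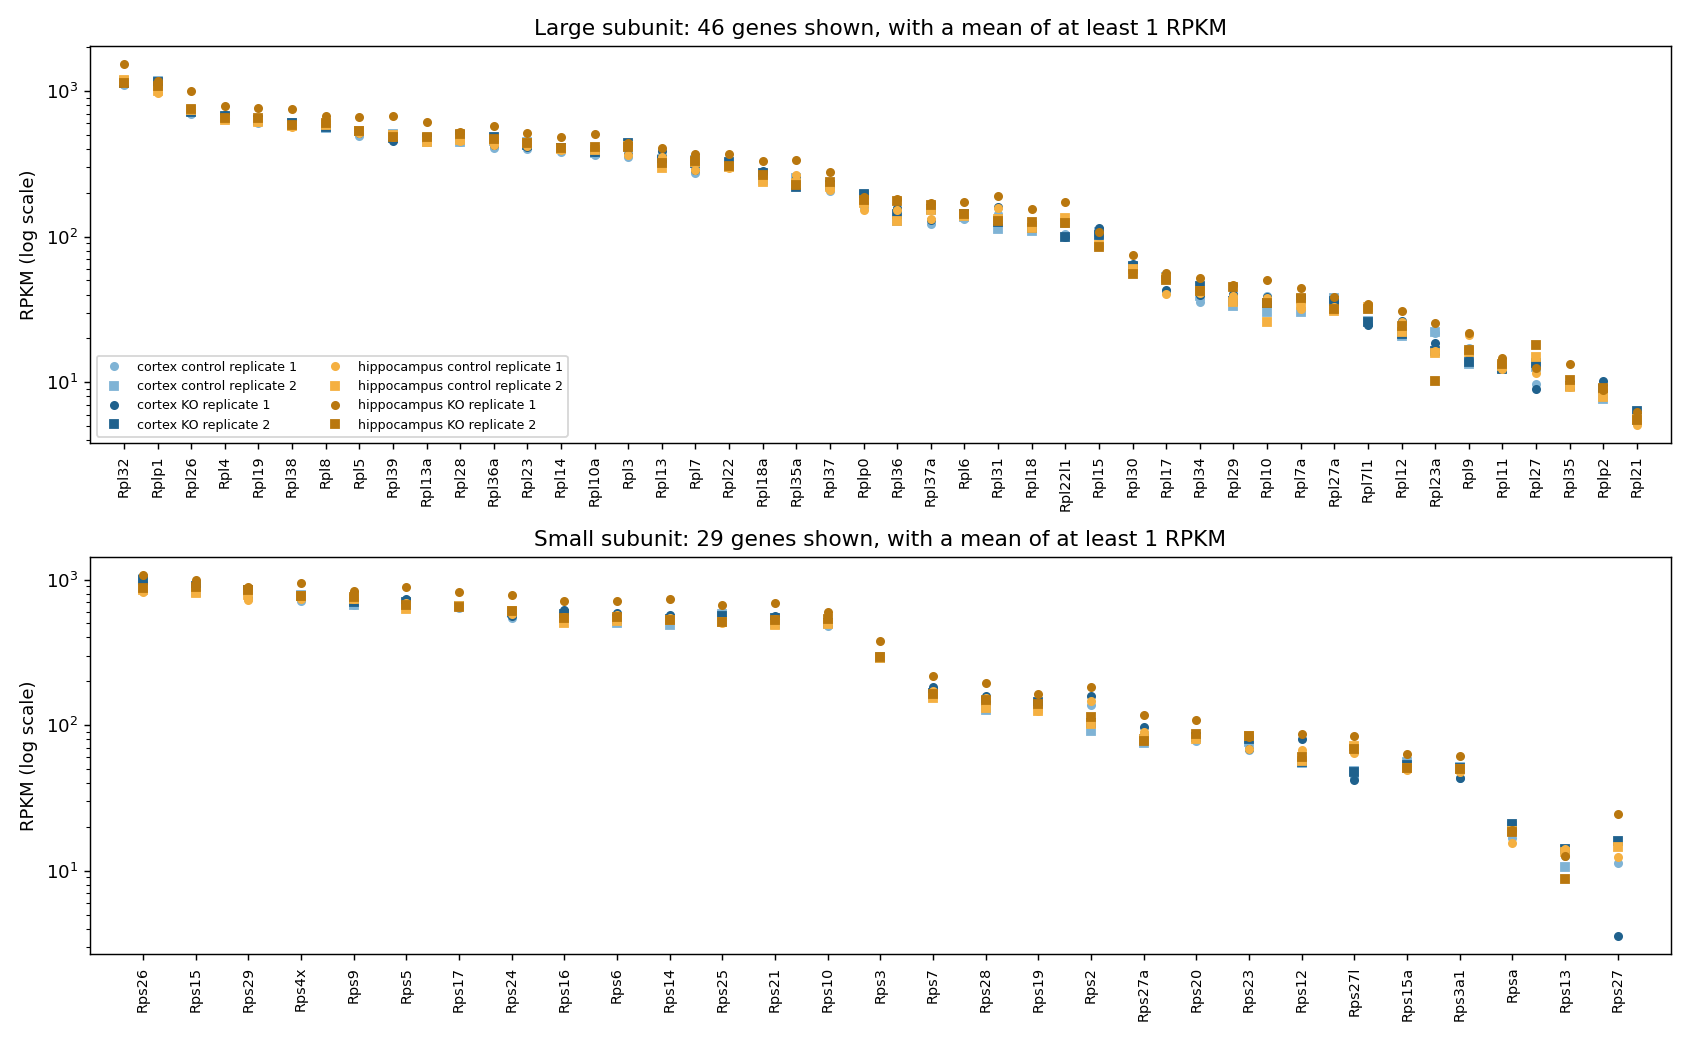
RPKM on a log scale for 75 ribosomal protein genes with a mean of at least 1 RPKM, ordered by mean within the large (top, 46 genes) and the small subunit (bottom, 29 genes); each point is 1 library, coloured by group, with circles for replicate 1 and squares for replicate 2. Levels fall from 1193 RPKM for Rpl32 to 5.72 RPKM for Rpl21, and the circle of hippocampus KO replicate 1 is the top point for most genes; Rps27 rests on 0 to 6 counts per library and its 2 libraries at 0 are not drawn.

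The per-length values rest on the length that the authors divided by, and this length can be recovered from the count, the total and the RPKM. For 79 genes it came to between 2 and 4778.2 bases with a median of 393, and for 17 it was under 100 bases. As a share of the longest annotated transcript it ran from 0.298% for Rps27 to 97.1% for Rps20, with a median of 33.5%. For 53 genes with at least 1000 counts in every library the length recovered from the 8 libraries differed by a factor of at most 1.00028. The order of genes by RPKM therefore depends on short recovered lengths for many of them. The length was 78 bases for Rplp1, 47 for Rps2, 20 each for Rpl36 and Rps12 and 2 for Rps27. What these lengths stand for is not stated in the sources, so they need not be a stretch over which reads were counted. How reads that match the many pseudogene copies of this family were counted is not stated in any source used here. Levels of single genes are uncertain to that extent, and so is the family's share of counts as a measure of its RNA. Differences between libraries have the same length of a gene on both sides.

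Of the large subunit, Rpl32 had the highest level, with 1104 and 1170 RPKM in control cortex, 1148 and 1134 in KO cortex, 1137 and 1185 in control hippocampus and 1531 and 1137 in KO hippocampus. All libraries but replicate 1 of hippocampus KO lay close together for this gene. Rpl26, at a mean of 767.0 RPKM, Rpl4 at 675 and Rpl19 at 640 (means over the 8 libraries) came after Rplp1. The 5 small-subunit genes with the highest means over the 8 libraries were Rps26 (925 RPKM), Rps15 (878), Rps29 (799.8), Rps4x (781) and Rps9 (729). Neighbours in this order overlapped: Rps4x ran from 711 to 949 RPKM and Rpl26 from 695 to 997. Rps4x is 1 of 4 members on the X chromosome, with Rpl10, Rpl36a and Rpl39.

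The stalk of the large subunit, which recruits the translation factors, is built from Rplp0 and the small acidic proteins Rplp1 and Rplp2. Rplp1 had 1060 and 1165 RPKM in control cortex, 1087 and 1143 in KO cortex, 966 and 995 in control hippocampus, and 1173 and 1074 in KO hippocampus. Both hippocampus control libraries lay below the other 6. Rplp0 ran from 152 to 196 RPKM over the 8 libraries and Rplp2 from 7.74 to 10.3, so the RPKM of Rplp2 was less than 1% of that of Rplp1 in every library although their proteins pair in the ribosome; the length was 523.1 bases for Rplp2 and 78 for Rplp1. Rpsa, the small-subunit protein first known as a laminin receptor, ran from 15.5 to 20.9 RPKM.

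Some members had counts at or near 0. Rpl10l, which in mice serves male germ cells, had 0 counts in every library, and 3 counts, taken here as the smallest number counted as detection, correspond to 0.0214 to 0.0515 CPM (the count scaled to the library total). Rpl3l, known from heart and skeletal muscle, had 1 to 7 counts per library and Rpl39l, known from the testis, 2 to 16. Their relatives Rpl3 and Rpl39 ran from 354 to 441 and from 453 to 677 RPKM. Rps27 also had 0 to 6 counts per library, but its recovered length is 2 bases only. Its mean of 10.3 RPKM rests on these few counts, so a low level cannot be read from them. Rps18 had 317 to 665 counts per library but no RPKM value. After the filter on low counts 77 of the 81 genes were tested among 16111 genes; the 4 that did not pass were Rpl10l, Rpl39l, Rpl3l and Rps27.

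The KO against control comparison asks whether loss of Srrm4 changed these messenger RNAs. No ribosomal protein gene passed the threshold (adjusted p below 0.05, Benjamini-Hochberg over all 16111 genes, edgeR) in cortex, in hippocampus or over both tissues. Nearly all of them were fitted slightly higher in the KO, by a median of 0.06 on the log2 scale in cortex and 0.16 in hippocampus. The value for hippocampus came to 0.02 without replicate 1 of hippocampus KO, and that for cortex stayed at 0.06.

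In cortex the log2 fold change was positive for 65 and negative for 12 of the 77 genes, and their quartiles were 0.01 and 0.10. Over all 16111 genes the median was -0.000568 and 0.0186% passed the threshold. No ribosomal protein gene reached an unadjusted p below 0.05 by edgeR, and DESeq2 and limma passed none at the adjusted threshold. Both KO libraries lay above both controls for 25 genes and below both for 4, against 11% and 11.4% of all genes. The medians were 0.06 for the 46 large-subunit and 0.08 for the 31 small-subunit genes.

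Rps12, of the small subunit, had the largest fitted increase in cortex: its RPKM was 58.0 and 55.0 in control and 80.3 and 55.8 in KO. The increase came from 1 KO library, and the log2 fold change of 0.30 (SE 0.25, adjusted p = 1 by edgeR) was close to its error. Rpl7a, of the large subunit, had 32.0 and 30.5 RPKM in control and 38.1 and 37.2 in KO. The groups did not overlap, with a log2 fold change of 0.27 (SE 0.15) that also had an adjusted p of 1. Rps28, Rps13 and Rplp2 came next, at 0.26, 0.23 and 0.21. At the other end were Rpl23a (-0.29, SE 0.343), Rpl22l1 (-0.19, SE 0.139), Rpl35a (-0.11), Rpl39 (-0.07) and Rpl9 (-0.06), none of which passed. Rpl22l1 had 104 and 124 RPKM in control and 98.8 and 99.99 in KO, and its groups did not overlap.

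In hippocampus 75 of the 77 log2 fold changes were positive and 2 negative, with quartiles of 0.14 and 0.21. The median over all genes was -0.00426, and 0.0248% of all genes passed. An unadjusted p below 0.05 was reached by 5 ribosomal protein genes by edgeR, namely Rps19, Rpl37, Rpl13a, Rplp1 and Rpl35, and by 3.81% of all genes. The number of 5 was not stable when single libraries were left out, which leaves 1 library in a group. The number over all genes moved in these fits too. With a term for the replicate number in the model, edgeR gave 24 ribosomal protein genes an unadjusted p below 0.05, against 1259 of all 16111 genes. None passed the adjusted threshold with that term, by DESeq2 or by limma. Both KO libraries lay above both controls for 27 genes and below both for 1, against 13.3% and 15.9% of all genes. Without replicate 1 of hippocampus KO 46 were positive and 31 negative, and without replicate 2 the median was 0.29.

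Rpl10, one of the last proteins added to the large subunit before a ribosome becomes active, had the largest fitted increase in hippocampus. Its RPKM was 37.8 and 25.9 in control and 50.6 and 35.1 in KO, which overlapped, and edgeR fitted a log2 fold change of 0.39 (SE 0.252; adjusted p = 0.992). Rpl35 followed at 0.33 (SE 0.142), Rpl36 at 0.31 (SE 0.146), Rpl7a at 0.30 (SE 0.15) and Rpl29 at 0.27 (SE 0.136), each with an adjusted p of 0.992. Rpl35 had 9.37 and 9.25 RPKM in control and 13.4 and 10.3 in KO, with the KO libraries above. Rps13, with a recovered length of 61 bases, was lowest. It had 14.1 and 13.4 RPKM in control and 12.6 and 8.73 in KO, a log2 fold change of -0.36 (SE 0.222, adjusted p = 0.992 by edgeR). The next lowest were Rpl7l1 (-0.03), Rpl9 (0.01), Rplp2 (0.04) and Rpl8 (0.06).

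Over both tissues the median was 0.11, with 72 positive and 5 negative values, and 0.0621% of all genes passed; DESeq2 and limma again passed no ribosomal protein gene. The median was 0.05 without replicate 1 of hippocampus KO, with 64 positive and 13 negative. With a term for the replicate number in the model, edgeR gave 26 of the 77 an unadjusted p below 0.05, against 1298 of all 16111 genes. Without that term unadjusted p-values below 0.05 came from 10 of the 77 (13%) by edgeR, against 4.43% of all genes. With single libraries left out, which leaves 1 library in a group, the number of 10 moved, as did that over all genes. The smallest unadjusted p was that of Rpl28, a large-subunit protein, with a log2 fold change of 0.14 (SE 0.0409, unadjusted p = 0.00672, adjusted p = 0.984 by edgeR). Rpl28 had 445.0 and 446 RPKM in control cortex, 481 and 497 in KO cortex, 451 and 459 in control hippocampus, and 521 and 508 in KO hippocampus. Each KO library lay above every control library. The largest values were those of Rpl7a (0.28, SE 0.0974), Rps12 (0.26, SE 0.165), Rpl36 (0.26, SE 0.0971), Rps28 (0.25, SE 0.0984) and Rpl10 (0.24, SE 0.174), and the smallest those of Rps13 (-0.06), Rpl23a (-0.05), Rpl7l1 (-0.04), Rpl9 (-0.02) and Rpl22l1 (-0.01).

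Markers of red blood cells and microglia were also fitted higher in the KO in both tissues. The 6 erythroid markers had a median log2 fold change of 0.43 in cortex, where all 6 were positive, 0.66 in hippocampus (5 of 6) and 0.54 over both tissues (6 of 6), and 4 of the 6 had an unadjusted p below 0.05 over both. Their CPM summed to 47.1 and 58.3 in control cortex, 76.6 and 65.7 in KO cortex, 44.6 and 54.2 in control hippocampus, and 101 and 61.2 in KO hippocampus, so the KO libraries lay above the controls in each tissue, with either hippocampus KO library. The 6 microglia markers had medians of 0.19 in cortex, 0.22 in hippocampus and 0.19 over both, all 6 positive each time; their summed CPM was 39.8 to 46.6 in control and 47.8 to 50.5 in KO cortex, and 72.4 to 85.0 in control and 84.0 to 95.0 in KO hippocampus. The 5 neuron markers were all negative, with medians of -0.03 in cortex, -0.16 in hippocampus and -0.11 over both. The 5 choroid plexus markers had medians of 0.30 in cortex, where 4 were positive, and -0.65 in hippocampus, where none was. No marker of these lists passed the adjusted threshold by edgeR in the KO comparisons. No erythroid, microglia or neuron marker was at 0 in any library, although Slc4a1, an erythroid marker, stayed at 0.05 to 0.13 RPKM. Their part in the ribosomal protein values was not tested.

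The KO libraries lay above the controls within both tissues for 14 genes and below within both for none, against 2.66% and 3.66% of all genes. They included the large-subunit genes Rpl7a, Rpl13a, Rpl14, Rpl19, Rpl28, Rpl29, Rpl36 and Rpl37 and the small-subunit genes Rps9, Rps10, Rps15, Rps19 and Rps20. Rps19, the gene most often mutated in human Diamond-Blackfan anaemia, had 126 and 137 RPKM in control cortex and 136 and 144 in KO cortex, which overlap in RPKM though not after TMM scaling. In hippocampus it had 126 and 125 in control and 164 and 139 in KO. Its log2 fold change over both tissues was 0.17 (SE 0.0624, adjusted p = 1 by edgeR).

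**Figure D2:**
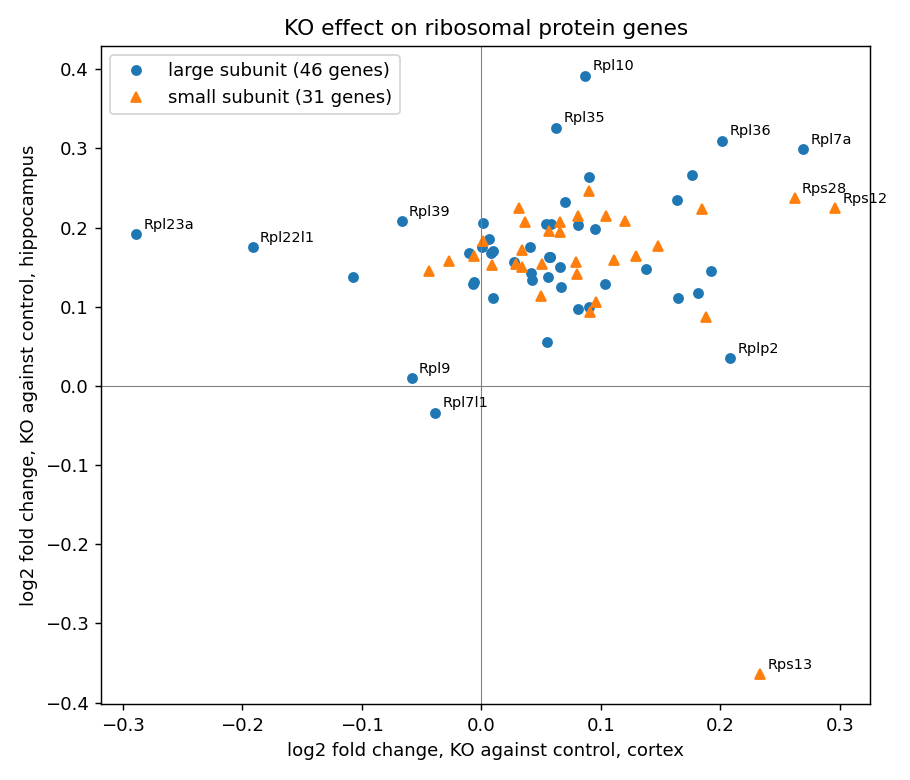
Log2 fold change of KO against control in cortex (horizontal) and hippocampus (vertical) for the 77 tested ribosomal protein genes; circles are large-subunit and triangles small-subunit genes. Most genes sit to the upper right of 0, Rps13 is the lowest in hippocampus at -0.36, and no gene passed the threshold in either tissue.

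The difference between the tissues in the KO effect was tested as an interaction, and no gene of the 16111 passed (0%), ribosomal protein genes included. By edgeR, none of the 77 had an unadjusted p below 0.05 and 158 of all genes did; DESeq2 and limma passed no gene. The fitted interaction was positive for 68 of the 77, with a median of 0.11, and without replicate 1 of hippocampus KO it was positive for 27, with a median of -0.03. Rpl23a (0.48, SE 0.492), Rpl22l1 (0.37, SE 0.197), Rpl10 (0.30), Rpl39 (0.27) and Rpl35 (0.26) had the largest values and Rps13 (-0.60, SE 0.312), Rplp2 (-0.17), Rps12 (-0.07) and Rpl21 (-0.06) were among the smallest, all with an adjusted p of 1.

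Replicate 1 of hippocampus KO carried most of the hippocampus difference. It was the highest of the 8 libraries for 57 of the 77 genes (74%) and for 20.7% of all genes. Against the mean of the other 3 hippocampus libraries its log2 CPM of ribosomal protein genes were higher by a median of 0.29, with 74 of 77 above 0, whereas the median over all genes was 0.01. Replicate 2 of hippocampus KO against the 2 controls gave a median of 0.02, with 48 of 77 above 0, and -0.01 over all genes. The plot of ribosomal protein genes by library shows this shift.

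**Figure D3:**
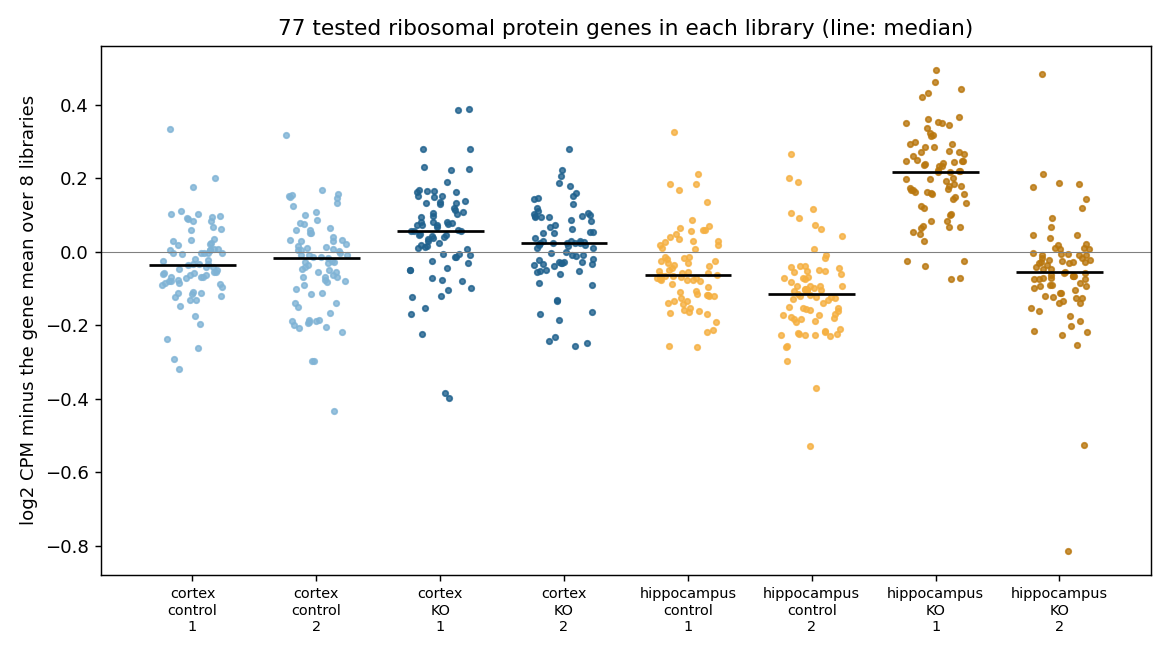
Log2 CPM (TMM-scaled) of the 77 tested ribosomal protein genes, each minus its mean over the 8 libraries; points are genes and black lines medians. The median of hippocampus KO replicate 1 is 0.22, and those of the other 7 libraries lie between -0.12 and 0.06.

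Other transcripts were also high in that library. Beside the mitochondrial genome, the 6 erythroid markers summed to 101 CPM there and to 44.6 to 76.6 elsewhere; Hbb-bs, a beta globin, had 233 RPKM against 103 to 178. The 5 progenitor markers summed to 687 CPM, against 567 to 623 in the other hippocampus libraries and 336 to 372 in cortex. The 6 microglia markers summed to 95.0, against 72.4 to 85.0 in the other hippocampus libraries. The 5 neuron markers summed to 3282, against 3354 to 3674 in the other hippocampus libraries, and Syt1, a synaptic vesicle protein, had 43.2 RPKM against 55.5 to 57.6. The choroid plexus markers summed to 35.3 there and to 194 in replicate 2 of hippocampus control. The part of these transcripts in the ribosomal protein result was not tested. In bulk tissue fewer cells of a type and less RNA per cell cannot be told apart.

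Genes that work beside the ribosomal proteins were compared in the same fits. The list of 46 ribosome biogenesis genes, which make ribosomal RNA and assemble subunits, had a median KO log2 fold change over both tissues of -0.01, and 40 initiation factor genes had -0.01. The elongation factor list of 11 genes, which includes Tpt1, not itself an elongation factor, had a median of -0.02. The median was -0.00384 for 77 mitochondrial ribosomal protein genes. None of these genes passed in any KO comparison by edgeR; over both tissues an unadjusted p below 0.05 came from 1 elongation factor gene, 1 initiation factor gene, 1 mitochondrial ribosomal protein gene and 0 biogenesis genes. Rack1, which sits on the small subunit and lies outside the symbol rule, had 458 and 451 RPKM in control cortex, 480.0 and 463 in KO cortex, 459 and 438 in control hippocampus and 561 and 455 in KO hippocampus, again highest in replicate 1 of hippocampus KO. The 12 tested genes of the mitochondrial genome had medians of -0.02 in cortex and 0.18 in hippocampus, where all 12 were positive. Eef1a1, the factor that brings aminoacyl-tRNA to the ribosome, was the most abundant of the elongation factor list at a mean of 4046 RPKM. Tpt1 (1310 RPKM) and Eef2 (823) came next. In replicate 1 of hippocampus KO Eef1a1 had 4803 RPKM against 3608 to 4394 elsewhere, and Tpt1 had 1540 against 1242 to 1312. Eef2 was highest in replicate 1 of cortex KO, at 948 RPKM. Eif4a1 (517), Eif4g2 (404.5) and Eif4a2 (278.5) led the initiation factors and Npm1 (227), Rrp1 (137) and Fbl (85.0) the biogenesis genes. Mrpl52 (98.7), Mrps21 (66.2) and Mrpl42 (61.3) had the highest means of the mitochondrial ribosome.

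The comparison of hippocampus with cortex asks how these genes differ between the tissues, and here Rps27l, Rpl7l1 and Rpl22l1, relatives of other ribosomal protein genes, were higher in hippocampus. Rps27l and Rpl7l1 passed in both genotypes, Rpl22l1 in the KO and Rplp1, which was lower in hippocampus, in controls. The other 73 tested genes passed in neither. In controls 3 of 77 ribosomal protein genes passed, against 33.9% of all genes (19% higher and 14.9% lower). In the KO 3 of 77 passed, all of them higher, against 40% of all genes (21.2% higher and 18.8% lower). These counts depended on single libraries. They moved in both genotypes with 1 library left out, which leaves 1 library in a group, and so did the calls over all genes. In these fits the log2 difference of Rps27l was 0.43 to 0.53 in controls and 0.52 to 0.80 in the KO. That of Rpl7l1 was 0.23 to 0.30 in controls and 0.22 to 0.31 in the KO. Rpl22l1 ran from 0.22 to 0.67 in the KO and Rplp1 from -0.30 to -0.21 in controls.

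Rps27l is a relative of Rps27 that in mouse and human cells is induced by p53. It had 43.8 and 48.6 RPKM in control cortex, 41.8 and 47.7 in KO cortex, 64.2 and 71.6 in control hippocampus and 84.4 and 68.5 in KO hippocampus. All 4 hippocampus libraries lay above all 4 cortex libraries. The log2 difference was 0.48 in controls (SE 0.113, adjusted p = 0.0119 by edgeR) and 0.67 in the KO (SE 0.113, adjusted p = 0.00226). The call in the KO held in every alternative run (adjusted p from 2.53e-06 to 0.0186). In controls the adjusted p was 0.086 without cortex control replicate 1 and 0.0676 without hippocampus control replicate 2, with log2 differences of 0.43 in both cases. A comparison with Rps27 itself was not possible, since that gene has too few counts.

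Rpl7l1 had 25.9 and 26.6 RPKM in control cortex, 24.9 and 26.1 in KO cortex, 33.2 and 33.0 in control hippocampus and 34.3 and 31.7 in KO hippocampus. The tissues did not overlap, and the 2 genotypes of a tissue did. The log2 difference was 0.26 in controls (SE 0.0675, adjusted p = 0.0173 by edgeR) and 0.27 in the KO (SE 0.0675, adjusted p = 0.0143). In controls the adjusted p rose to 0.0908 and 0.0889 without the first and the second cortex library and to 0.124 and 0.0598 without the first and the second hippocampus library. In the KO it was 0.0841 and 0.051 without the first and the second cortex library, 0.052 without hippocampus replicate 1 and 0.0704 when only the 4 KO libraries were fitted. The direction was the same in each. Rpl7 had 275 to 337 RPKM in cortex and 287 to 369 in hippocampus, and Rpl7l1 came to 7.88% to 9.43% of Rpl7 in cortex and 9.31% to 11.6% in hippocampus, which overlap.

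Rpl22l1 takes the place of Rpl22 in a share of ribosomes, and in mouse cells Rpl22 is known to lower the level of the Rpl22l1 messenger RNA. Rpl22l1 had 104 and 124 RPKM in control cortex, 98.8 and 99.99 in KO cortex, 123 and 134 in control hippocampus and 172 and 124 in KO hippocampus. Both hippocampus KO libraries lay above both cortex KO libraries, while hippocampus control replicate 1 lay within the range of cortex control. The log2 difference between tissues was 0.47 in the KO (SE 0.139, adjusted p = 0.0287 by edgeR). It fell to 0.22 with an adjusted p of 0.141 without hippocampus KO replicate 1, and the adjusted p was 0.0935 and 0.0871 without the first and the second cortex KO library. The difference between the genotypes in this contrast is the interaction given above, which did not pass. Rpl22 had 299 to 326 RPKM in cortex and 298 to 370 in hippocampus. Rpl22l1 came to 34.9% and 41.3% of Rpl22 in control cortex, 33.0% and 30.7% in KO cortex, 41.5% and 44.8% in control hippocampus and 46.5% and 40.5% in KO hippocampus. In the KO the tissues did not overlap in this ratio.

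**Figure D4:**
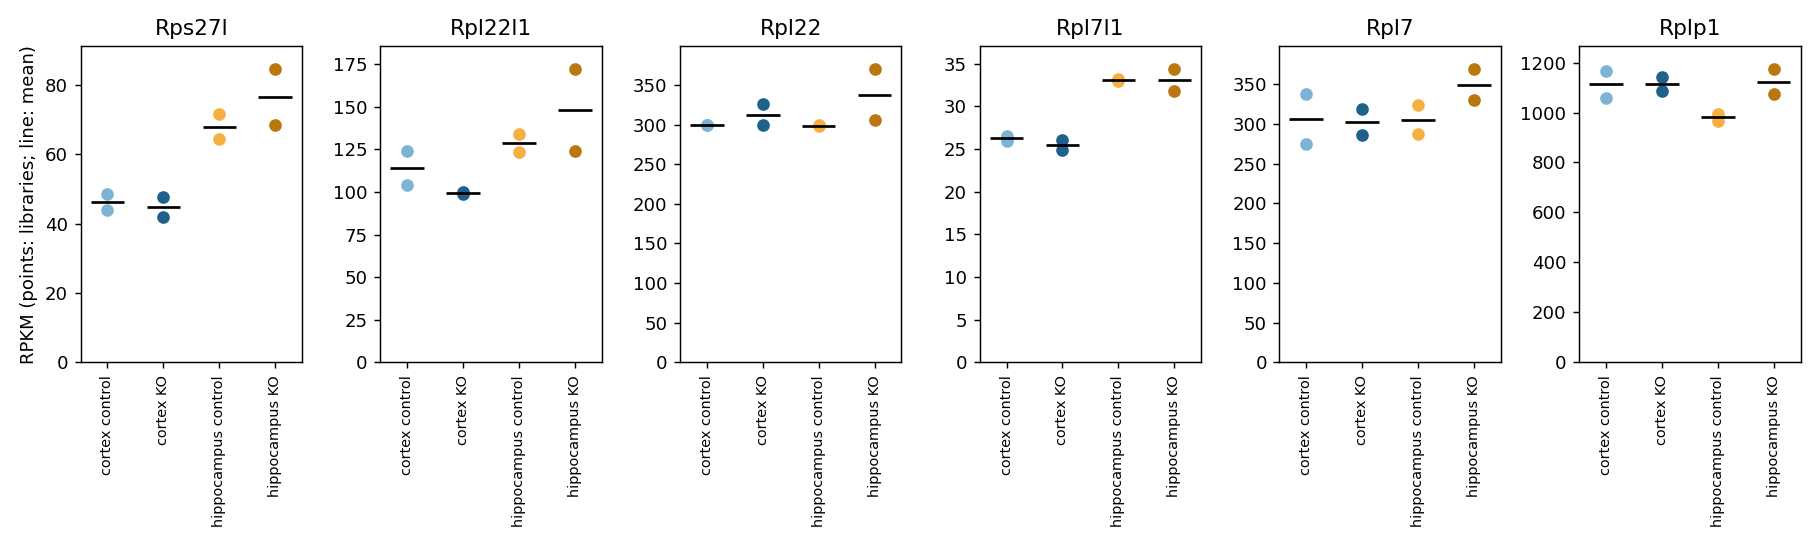
RPKM of Rps27l, Rpl22l1, Rpl22, Rpl7l1, Rpl7 and Rplp1 in each library by group, on axes that start at 0; points are libraries and lines the means of 2. The hippocampus libraries of Rps27l and Rpl7l1 lie above the cortex libraries, as 172 and 124 RPKM of Rpl22l1 do in the KO, and the hippocampus controls of Rplp1 lie lowest at 966 and 995 RPKM.

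Rplp1 was lower in hippocampus in controls, with a log2 difference of -0.25 (SE 0.0701, adjusted p = 0.0236 by edgeR). This call was the least stable. It was missed with upper-quartile scaling (adjusted p = 0.0547), with scaling to the total count alone (0.11), in limma on log2(RPKM + 1) (0.108) and log2(RPKM + 0.1) (0.172), and without any of the 4 control libraries (0.0537 to 0.135). The log2 difference was negative in each, from -0.30 to -0.18. In the KO its RPKM overlapped between tissues, at 1087 and 1143 in cortex and 1173 and 1074 in hippocampus, and it did not pass.

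Rpl15, a large-subunit protein deep in the ribosomal RNA core, had 101 and 107 RPKM in control cortex, 114 and 102 in KO cortex, 86.4 and 87.7 in control hippocampus and 108 and 85.5 in KO hippocampus. The control groups did not overlap and the KO groups did in RPKM. By edgeR the log2 difference was -0.33 in controls (SE 0.111, adjusted p = 0.053) and -0.27 in the KO (SE 0.111, adjusted p = 0.089), so neither passed. DESeq2 passed both, with adjusted p-values of 0.0226 and 0.0498, and without hippocampus KO replicate 1 the KO value was -0.44 (adjusted p = 0.015 by edgeR). The remaining genes at the ends of the controls' order were Rpl23a (-0.50, adjusted p = 0.32), Rpl27a (-0.23) and Rps26 (-0.22) on the lower side and Rpl9 (0.21), Rpl27 (0.16) and Rps13 (0.16) on the higher. In the KO they were Rps13 (-0.44, adjusted p = 0.154), Rplp2 (-0.22), Rpsa (-0.18) and Rpl21 (-0.18), and on the higher side Rpl27 (0.34) and Rpl9 (0.28).

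As a family the ribosomal protein genes showed no stable direction between the tissues. The median log2 difference was -0.06 in controls, with 21 positive and 56 negative, and 0.06 in the KO, with 54 positive and 23 negative. In controls it was positive, at 0.01, when libraries were scaled to their total counts alone or when limma was run on RPKM, and in the KO it was -0.10 without hippocampus KO replicate 1. The median over all genes also moved with the scaling, in the KO from 0.03 to 0.14 with the total count alone, and the genes passing in the KO went from 3415 higher and 3027 lower to 4278 higher and 2219 lower. In controls they went from 3066 higher and 2398 lower to 3605 higher and 1898 lower. After TMM scaling 4 ribosomal protein genes in controls had both hippocampus libraries above both cortex libraries and 28 had them below, against 36.6% and 32.7% of all genes. In the KO there were 8 on each side, against 35.9% and 31.5%.

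The other translation lists also had few genes that differed between the tissues. In controls 2 of 11 elongation factor genes passed, 4 of 40 initiation factor genes, 3 of 46 biogenesis genes and 4 of 77 mitochondrial ribosomal protein genes, against 33.9% of all genes. In the KO 1, 7, 4 and 8 passed, against 40%. Eef1a2, the elongation factor of mature neurons and muscle, was lower in hippocampus by a log2 difference of -1.25 in controls (adjusted p = 0.000347 by edgeR) and -1.61 in the KO (adjusted p = 9.33e-05). Eif1b fell on the same side, at -0.92 and -1.01, as did Eif1a (-0.40 and -0.38) and Eif4g3 (-0.32 and -0.38), while Eif4ebp1, which holds back the cap-binding factor Eif4e, was higher in hippocampus at 0.74 and 0.65, and all 4 passed in both genotypes. Eef1e1 passed in controls (-0.25), and Eif3f (-0.39), Eif4b (-0.24) and Eif4ebp2 (-0.52) in the KO. Of the 46 biogenesis genes, Myc, a transcription factor that raises ribosome production, was lower in hippocampus at -0.50 in controls (adjusted p = 0.0351 by edgeR) and -0.82 in the KO (adjusted p = 0.00378). Polr1b, a subunit of RNA polymerase I, was at -0.26 and -0.38 and passed in both. Polr1d passed in controls (-0.33), and Nolc1 (-0.22) and Ebna1bp2 (0.29) in the KO. Of 77 mitochondrial ribosomal protein genes 2 were higher and 2 lower in controls, and 3 were higher and 5 lower in the KO, against 19% and 14.9% of all genes in controls and 21.2% and 18.8% in the KO. Mrpl17 and Mrps6 were higher and Mrpl34 and Mrpl50 lower in both genotypes, and Mrpl13 was higher and Mrps2, Mrps18a and Mrps26 lower in the KO.

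Some ribosomal protein genes also differed between the replicate numbers, as did 1273 of all 16111 genes. A term for replicate 2 against replicate 1, chosen after the data were seen, passed 9 of 77 ribosomal protein genes by edgeR, 2 of them higher and 7 lower in replicate 2, against 7.9% of all genes (4.1% higher and 3.8% lower). The sign was the same in all 4 groups for 34 genes, 4 higher and 30 lower, against 16% and 16.9% of all genes. Rps2, of the small subunit, had 138 and 91.4 RPKM in replicates 1 and 2 of cortex control, 157 and 103 in KO cortex, 146 and 101 in control hippocampus and 182 and 113 in KO hippocampus. Replicate 1 was higher in every group, and every replicate 1 library lay above every replicate 2 library, with a log2 difference of -0.63 (SE 0.0632, adjusted p = 0.00327 by edgeR).

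Rpl31, at the exit of the peptide tunnel, had 142 and 114 RPKM in control cortex, 159 and 127 in KO cortex, 156 and 133 in control hippocampus and 190 and 129 in KO hippocampus. Its log2 difference was -0.39 (SE 0.0503, adjusted p = 0.00642 by edgeR). Rpl10 (-0.42), Rps27a (-0.34), Rpl12 (-0.31), Rpl13 (-0.25) and Rps7 (-0.23) were also lower in replicate 2. Rpl27 went the other way, with 9.75 and 12.8, 9.04 and 13.6, 11.6 and 14.9, and 12.5 and 18.2 RPKM in the same order of groups, and a log2 difference of 0.44 (SE 0.0985, adjusted p = 0.0354). Of the 9 genes Rps2 alone passed in each run with a group left out and with DESeq2. The number of ribosomal protein genes passing was 3 without cortex control, 1 without cortex KO, 2 without hippocampus control, 29 without hippocampus KO and 18 with DESeq2. Over all genes it moved the same way, to 430, 108, 178, 4369 and 1880 in the same order, of 15936 to 16111 tested. Of 31 members with a recovered length under 300 bases 7 passed, and of 45 with a longer one 2 passed. The part of the recovered length in this difference was not tested. In every group replicate 1 joins runs 1 and 2 and is the deeper library. Runs and depth therefore cannot be told apart from the replicate number. For Rps2 the replicate difference exceeded every fitted KO and tissue difference of the same gene.

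**Figure D5:**
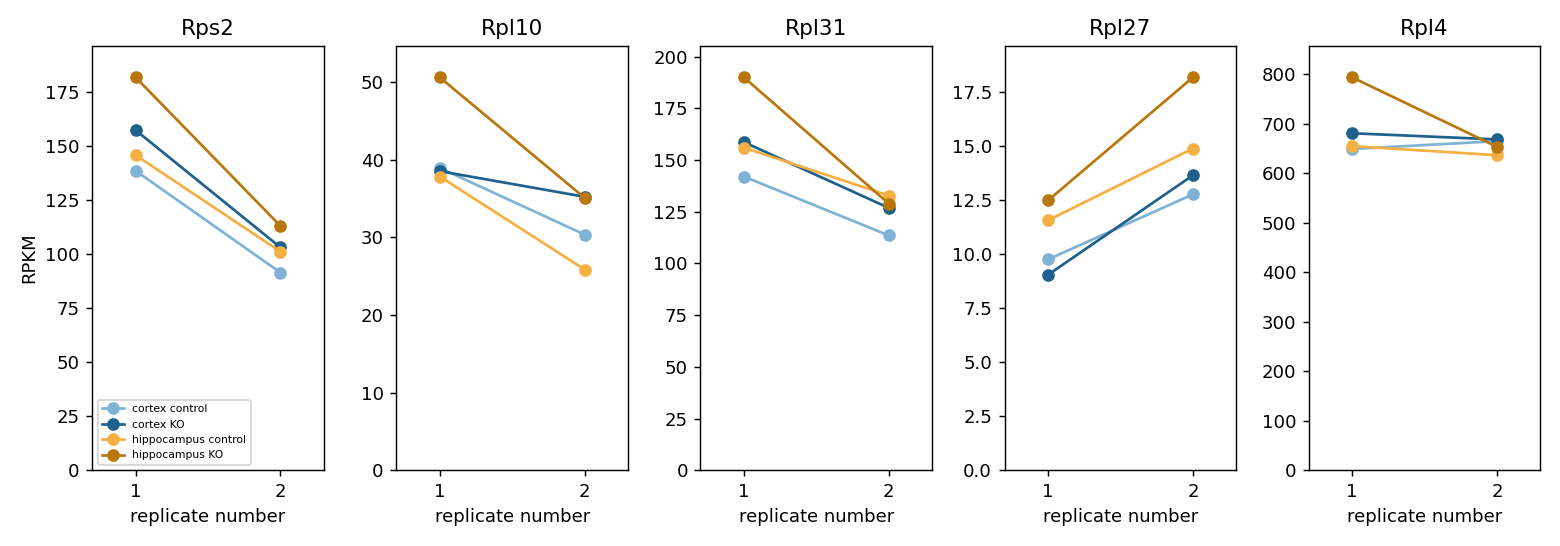
RPKM in replicate 1 and replicate 2 of each group for Rps2, Rpl10 and Rpl31, which were lower in replicate 2, for Rpl27, which was higher, and for Rpl4, an abundant gene that did not pass; lines join the 2 libraries of a group and axes start at 0. The 4 lines of Rps2 all fall, from 138 to 182 RPKM in replicate 1 to 91.4 to 113 in replicate 2.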

How the data were processed

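RNA sequencing libraries of cortex and hippocampus from control and Srrm4 KO mouse embryos were analysed from 8 tables for 12 samples, as runs 1 and 2 of replicate 1 share a table in every group. Each table gives an Ensembl gene ID, an RPKM and a count; the deposited count column was read as whole-number read counts made by the authors, with blank cells as 0. The deposited RPKM column has 1114 cells with the letters "ne", which were taken as missing. Bowtie and the mouse build mm9 are named in the submitters' processing notes; the counting rule, strand setting, annotation and treatment of reads with several matches are not stated in the sources used here. Symbols were added from GENCODE M21 for 20759 of 22667 IDs. That annotation is of another build (GRCm38), so no coordinates of counted genes are given; promoter windows and their coordinates are from RefSeq (GRCm38.p6).

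Genes passing filterByExpr (minimum count 10, minimum total 15; 16111 genes) were tested with the edgeR 4.0.16 quasi-likelihood test (TMM, R 4.3.3, two-sided, adjusted p below 0.05), fitted on all 8 libraries with 4 group means; the replicate term was added to that model. The tests were checked on simulated counts. DESeq2 1.42.0, limma 3.58.1 on log2(RPKM + 1) and log2(RPKM + 0.1), other scalings and filters, a replicate block and the omission of each library were the alternatives. Fold changes are on the log2 scale. Genes named are those past the threshold, the 5 highest and 5 lowest log2 fold changes of a contrast, the 5 highest RPKM of each subunit, stalk genes, Rpsa, relatives and untested members; names outside this rule (such as Rpl28, Rpl15, Rps19 and the genes above controls in both tissues) were chosen after their values were seen. The members, gene lists and tests were chosen with earlier results of these data known. Results for a few genes are not reported here, although these genes are counted in the totals.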

Additional observations from a re-analysis of the deposited data

How the results depend on the processing

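The number of ribosomal protein genes passing in the KO comparisons and in the interaction was 0 under all alternatives run. With 2 libraries a group, small differences could not be resolved: the standard error exceeded the fitted KO change for 59 of the 77 genes in cortex and 19 in hippocampus.

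With the replicate number as a block, the genes passing between tissues in controls went from 3 to 5 (Rpl13 and Rpl15 in addition). With libraries left out one at a time, the number passing ran from 0 to 6 in controls and from 1 to 14 in the KO. The KO median ran from 0.04 to 0.07 in cortex, 0.02 to 0.29 in hippocampus and 0.05 to 0.15 over both, and the median interaction from -0.03 to 0.23. The tissue median ran from -0.08 to -0.04 in controls and -0.10 to 0.16 in the KO, where scaling to the total count alone gave 0.17. For the replicate term, 3 ribosomal protein genes passed without cortex control, 1 without cortex KO, 2 without hippocampus control, 29 without hippocampus KO and 18 with DESeq2. Over all genes 430, 108, 178, 4369 and 1880 passed in the same order. In the single-gene results 15 gained and 21 lost the threshold, 3324 stayed on their side, and none changed sign while called.

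Over all genes the KO calls were 3 in cortex, 4 in hippocampus and 10 over both, and 11, 18 and 37 with DESeq2. The block gave 6 in hippocampus and 22 over both, upper-quartile scaling and limma gave 2 in hippocampus, and limma and the fit of the compared groups alone gave 2 in cortex. Equal replicate numbers were not treated as pairs. The rule asked the correlation of deviations from group means over all genes to pass a cut-off in every pair of groups. It was 0.0961, just short of the cut-off, in 1 of 6 pairs and 0.107 to 0.38 in the others. Over the 77 ribosomal protein genes it was 0.495 to 0.885. With the block, unadjusted p-values below 0.05 in the KO comparisons came from 2 ribosomal protein genes in cortex (0 without it), 24 in hippocampus (5) and 26 over both (10), none passed the adjusted threshold, and Rpl15 passed between tissues in controls (adjusted p = 0.0188) and in the KO (adjusted p = 0.0354). Other scalings and tools gave 3 to 12 such genes in hippocampus, 1 when its libraries alone were fitted, and 9 to 12 over both.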

Other observations

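Rps4l, whose symbol fits the rule but which is annotated as a transcribed processed pseudogene on chromosome 6, was the only such symbol with more than a few counts. It had 30.9 and 28.6 RPKM in control cortex, 29.7 and 27.7 in KO cortex, 38.5 and 34.5 in control hippocampus and 32.2 and 34.2 in KO hippocampus. All 4 hippocampus libraries lay above all 4 cortex libraries, and replicate 1 of hippocampus KO, the highest library for 57 of the tested ribosomal protein genes, was the lowest of the hippocampus libraries here. Rpl6l had 0 to 4 counts per library, and Rps12l1, Rps3a2 and Rps3a3, listed without an RPKM, had 0 to 5.

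The deviations of replicates from their group means moved together more closely for ribosomal protein genes than over all genes. Between pairs of groups Pearson's r over the 77 genes was 0.495 to 0.885, and over all genes it was 0.0961 to 0.38. Genes are not independent, no test was made, and genes of like abundance were not compared. Of the ribosomal protein genes 56 had at least 10000 counts over the 8 libraries, while all genes include those with few counts. Libraries of a replicate number share the joining of runs and the depth, and what else they share is not stated in the sources.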
